A study of Bos taurus with 8 samples.

Results

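The neurotrophins BDNF and NTF3, their receptors NTRK2, NTRK3 and NGFR, and the sorting receptor SORT1 were followed window by window in MIRA-Seq libraries of bovine dermal fibroblasts. Every 3Kb window that the deposited files assign to 1 of these 6 gene symbols was taken, which gave 269 of the 902984 windows of the genome, namely 57 of NTRK2, 141 of NTRK3, 8 of NGFR, 13 of BDNF, 27 of NTF3 and 23 of SORT1. The genes were chosen by measured values: reads in the first window of NTRK2 had been seen to differ between breeds in these same libraries. That difference is therefore given as a description without a test, and the breed tests below concern the remaining windows and the other 5 genes. Where this window entered a level or an adjustment of p between members, this is said.

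The cultures were grown from skin of 4 Holstein and 4 Angus heifers, a dairy and a beef breed, with 1 library per animal at passage 5. All were kept in DMEM with fetal bovine serum and received no treatment, so breed is the only labelled contrast, and the way dairy and beef calves are reared cannot be told apart from it. The heifers were of about the same age when the skin was taken. Each culture is called by its breed and animal number. MIRA-Seq captures sonicated genomic DNA with methyl-binding domain proteins and counts the bound fragments, so that a window with more methylated CpG yields more reads, and a higher share of methylated cells cannot be told apart from denser methylation in each cell. The libraries hold DNA only, so the fibroblast label could not be set against marker genes.

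Neurotrophins are secreted growth factors of the nervous system that also reach skin, where nerve endings, hair follicles and fibroblasts use them. NTRK2 (TrkB) is the receptor tyrosine kinase for BDNF, NTRK3 (TrkC) is the one for NTF3 (neurotrophin-3), and NGFR (p75NTR) binds all neurotrophins and their uncleaved precursors. SORT1 (sortilin) carries proBDNF through the secretory pathway and joins NGFR as a co-receptor for the precursors. At many genes the start is low in methylated DNA and the transcribed body is higher.

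Between 18691111 and 35525554 reads fell in the windows of a library. Values are CPM, reads relative to the library size, with library sizes scaled by TMM, which brings the bulk of windows to a common level. The TMM factors ran from 0.643 in Angus 3 and 0.716 in Holstein 1 up to 1.32 in Holstein 2, and in the first 2 of these libraries the top 1% of windows held 72.4% and 69.0% of the reads, the highest shares of the 8. A count of 3 reads in a window, taken here as the limit of what can be read, corresponds to 0.0689 to 0.212 CPM, and this limit covers counting error only. All windows have the same length of 3000 bp, so CPM per window is a level of captured reads per length. CpG content per window was not measured, so a difference between genes or windows need not be one in methylation. Positions are in UMD v3.1.

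NTRK2 lies on the forward strand (chr8:79335787-79506786). Its first window, chr8:79335787-79338786, is the one the files label with coding exon 1. It held 5, 6, 18 and 16 reads across Holstein 1 to 4 and 52, 38, 26 and 42 reads across Angus 1 to 4. In CPM this was 0.353, 0.196, 0.628 and 0.367 in the Holstein cultures against 1.47, 1.24, 1.36 and 2.40 in the Angus cultures. Every Angus culture lay above every Holstein culture, with means of 1.62 ± 0.532 (SD, n = 4) and 0.386 ± 0.179 (SD, n = 4), a ratio of 4.18 and a log2 fold change of −2.02 (SE 0.28, Holstein over Angus). Scaled by the totals alone, the means were 1.56 ± 0.596 and 0.411 ± 0.202.

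Within the gene the same window changed its place. It was the highest of the 57 windows in 4 of 4 Angus cultures, whereas across Holstein 1 to 4 it ranked 9, 34, 4 and 14. It took 7.80, 6.96, 8.67 and 13.3% of all NTRK2 reads across Angus 1 to 4 against 2.42, 1.04, 3.73 and 2.42% across Holstein 1 to 4. Among the first windows of 26216 genes, its Holstein mean stood at percentile 50.3 and its Angus mean at percentile 88.3. The highest coverage in the window was 10, 8, 6 and 9 reads deep across Angus 1 to 4, at mean depths of 1.64, 1.19, 0.86 and 1.36. Across Holstein 1 to 4 it was 1, 3, 5 and 4, at mean depths of 0.17, 0.2, 0.58 and 0.52. The part of duplicate reads in these counts was not tested. Of the 23448 first windows tested, 50 passed the threshold used here between breeds, which was a false discovery rate (FDR) under 0.1 and a change of at least 2-fold in edgeR.

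**Figure D1:**
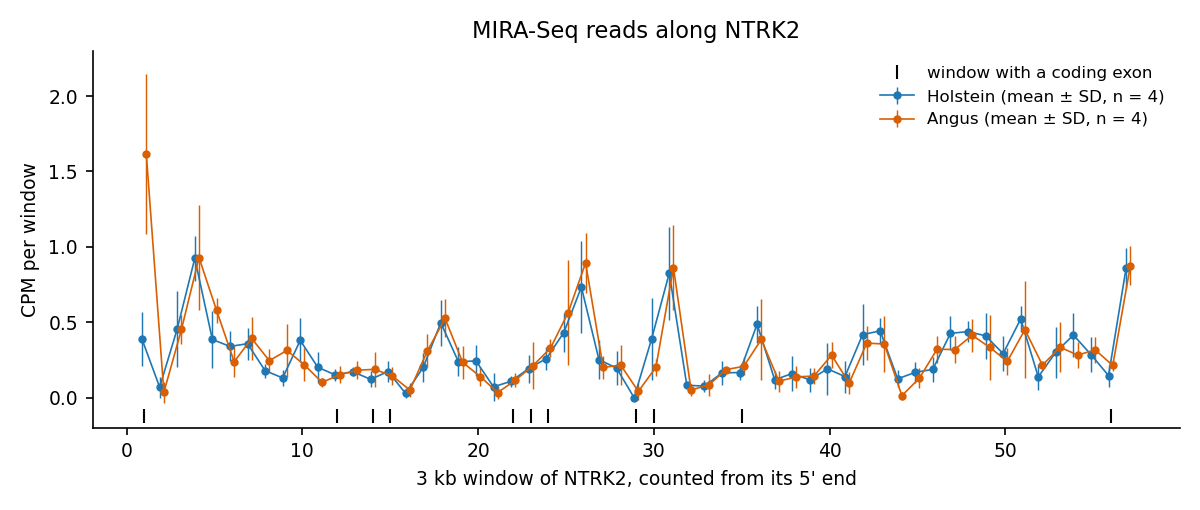
CPM of each 3 kb window of NTRK2 (vertical axis) against its order from the 5′ end (horizontal axis), with breed means over 4 cultures each. The breeds part at the first window (0.386 in Holstein, 1.62 in Angus) and run together over the rest of the gene.

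The window just upstream and the gene's next high window showed no breed difference beyond their error. The window just upstream held 0.296 ± 0.105 CPM in Holstein and 0.351 ± 0.176 CPM in Angus cultures (SD, n = 4 each), which is −0.19 on the log2 scale (SE 0.37). The window just downstream was near empty, with 0, 5, 2 and 2 reads across Holstein 1 to 4 and 5, 0, 0 and 0 across Angus 1 to 4, and had too few reads for the test. The gene's next high window, window 4, held 1.13, 0.786, 0.907 and 0.872 CPM across Holstein 1 to 4 and 0.762, 1.17, 0.522 and 1.26 CPM across Angus 1 to 4. The breeds overlapped there, with means of 0.924 ± 0.147 and 0.929 ± 0.347 and a log2 fold change of −0.04 (SE 0.26). None of the tested windows up to 5 on either side of the first window passed the threshold. The largest differences among them were −0.50 (SE 0.32) in the window 4 downstream and 0.48 (SE 0.40) in the window 5 downstream.

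**Figure D2:**
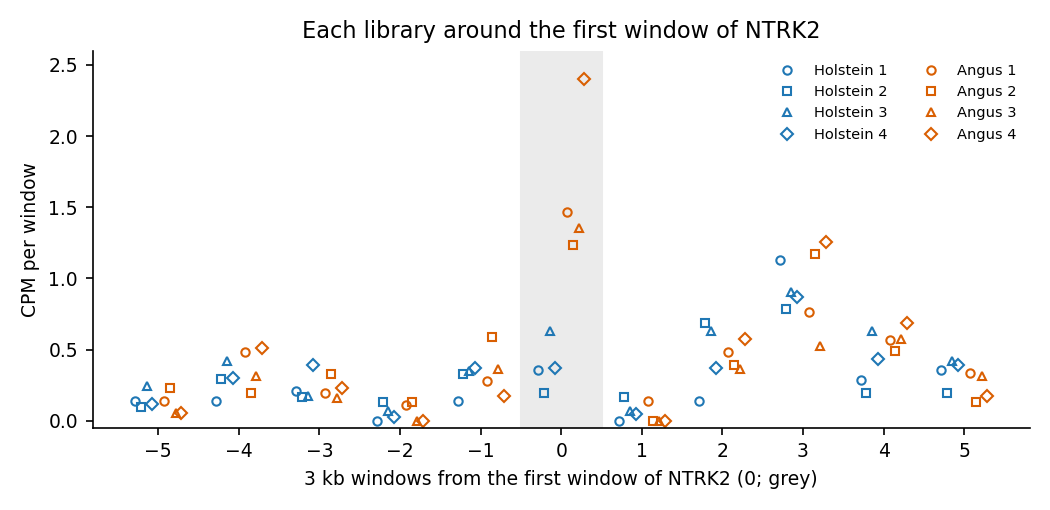
CPM (vertical axis) of each of the 8 cultures in the first window of NTRK2 (position 0) and in the 5 windows on either side of it (horizontal axis, in windows). At position 0 the 4 Angus cultures lie at 1.24 to 2.40 and the 4 Holstein cultures at 0.196 to 0.628, and at every other position the breeds overlap.

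The body of NTRK2, meaning all its windows but the first, showed no breed difference beyond its error. It held 0.255, 0.334, 0.289 and 0.264 CPM per window across Holstein 1 to 4 and 0.310, 0.295, 0.255 and 0.279 across Angus 1 to 4. The log2 fold change of the summed reads was 0.02, with a 95% interval of −0.27 to 0.30 (edgeR likelihood-ratio test, FDR 0.999941). The threshold was passed by 10 of 20415 gene bodies (0.049%). The difference was thus measured in 1 window and was not seen in the body.

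The bodies of the other receptors gave no difference past the threshold either. The body of NTRK3 (chr21:19221963-19644962, reverse strand) held 0.618 ± 0.0249 CPM per window in Holstein and 0.630 ± 0.0340 in Angus cultures, a log2 fold change of −0.01 (95% interval −0.25 to 0.23). The body of NGFR (chr19:37723275-37747274, reverse strand) varied most, with 1.93, 1.23, 1.67 and 1.41 CPM per window across Holstein 1 to 4 and 1.21, 1.51, 2.44 and 1.85 across Angus 1 to 4. Its highest values were in Angus 3 and Holstein 1, the libraries in which the top windows held the largest share of reads, and the part of that share in these values was not tested. The breeds overlapped, with a log2 fold change of −0.14 (95% interval −0.51 to 0.22).

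The ligands and SORT1 gave no breed difference past the threshold. BDNF (chr15:59162257-59201256, reverse strand) held 0.460 ± 0.0392 CPM per window in its Holstein bodies and 0.479 ± 0.0373 in its Angus bodies (log2 fold change −0.04, 95% interval −0.30 to 0.22). NTF3 (chr5:105138106-105219105, reverse strand) held 0.886 ± 0.0839 and 0.855 ± 0.0902 (0.07, −0.18 to 0.31). SORT1 (chr3:34149110-34218109, forward strand) held 0.471 ± 0.0185 and 0.471 ± 0.0249 (0.01, −0.24 to 0.26). All 6 bodies overlapped between breeds and had an FDR of 0.999941 in the edgeR test, and each interval leaves out a 2-fold change.

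**Figure D3:**
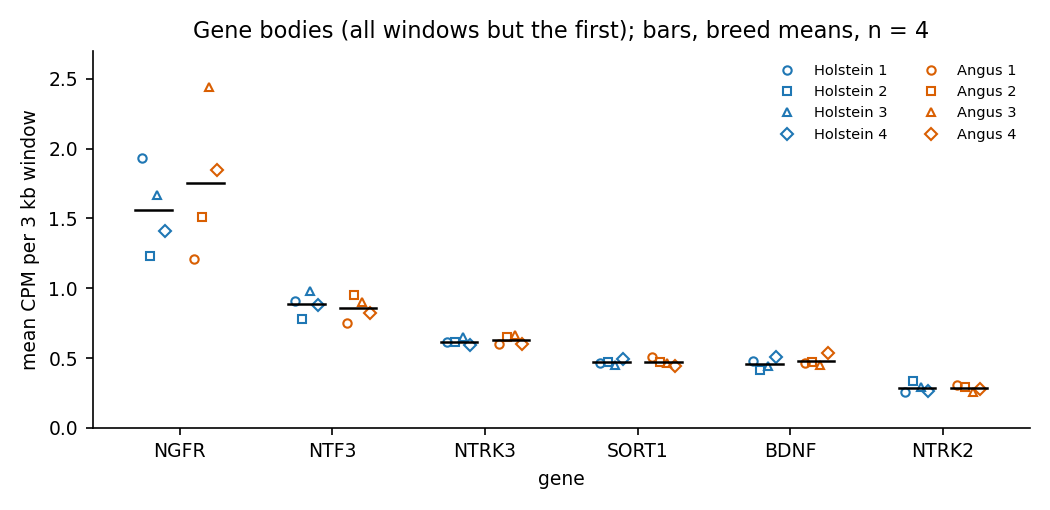
Mean CPM per 3 kb window (vertical axis) of the body of each of the 6 genes (horizontal axis), 1 point per culture and a bar at each breed mean (n = 4). The breeds overlap in every gene, and NGFR lies highest and spreads most, from 1.21 to 2.44.

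Taken window by window, 258 of the 269 windows had at least 24 reads over the 8 libraries and were tested. Leaving aside the first window of NTRK2, 0 of the other 257 passed the threshold in edgeR's likelihood-ratio test, against 760 of 747657 windows of the genome (0.102%). At an unadjusted p under 0.05 there were 13 (5.06%), 6 higher in Holstein and 7 higher in Angus cultures, beside 4.32% of all windows. The quasi-likelihood test gave 10 at that level and DESeq2 gave 3. Shares over all windows in these tests are not given here, so these counts are not read further. In 6 windows (2.33%) the breeds did not overlap, and the share over all windows was 2.33%. Higher values were found in Holstein in 129 windows and in Angus in 128, with a median log2 fold change of 0.01 beside −0.01 for all windows, a level that TMM sets close to 0 and that was 0.17 for all windows with total counts.

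The smallest p among these 257 belonged to window 140 of NTRK3 (chr21:19224963-19227962), next to the last in the gene. It held 3, 10, 9 and 5 reads across Holstein 1 to 4 and 20, 17, 10 and 5 across Angus 1 to 4. The means were 0.242 ± 0.0993 and 0.482 ± 0.132 CPM, and the log2 fold change of −1.08 (SE 0.37) had an FDR of 0.715 in the edgeR test. It did not pass. In the body of NTRK2 the fold changes ran from −1.09 (SE 0.47) in window 9 to 1.02 (SE 0.40) in window 30, which holds coding exon 10, and neither passed.

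The levels of captured reads in the genes, over both breeds, differed from each other. Per window, NGFR held 1.61 ± 0.373 CPM (SD, n = 8), NTF3 0.849 ± 0.0784, NTRK3 0.622 ± 0.0291, SORT1 0.470 ± 0.0158, BDNF 0.442 ± 0.0370 and NTRK2 0.298 ± 0.0293. Among 26209 genes, whose median was 0.507 CPM, NGFR stood at percentile 82.8 and NTRK2 at percentile 31.2. The kinase receptors thus differed in captured reads per window, and NTRK3 held more than NTRK2 in every culture. CpG content was not measured, so its part in the differences between genes was not tested. Steps between neighbours in this order are differences of log2 CPM with 0.25 CPM added to each level. They are therefore smaller than the ratios of the printed levels. Their size depends on the amount added, and NGFR over NTF3 was 0.86 with 0.05 CPM and 0.48 with 1 CPM. NGFR lay above NTF3 by 0.74 on the log2 scale, NTF3 above NTRK3 by 0.33, and NTRK3 above SORT1 by 0.28, each in 8 of 8 cultures (exact two-sided sign-flip test over libraries, adjusted p = 0.00977 for each, over the 5 pairs of neighbours). These pairs include BDNF over NTRK2, where the level of NTRK2 holds its first window. Without first windows the same steps were 0.74, 0.36 and 0.28, with the same adjusted p in that test. With the first windows left out of the levels, so that the window that led to the choice of genes takes no part, BDNF lay above NTRK2 by 0.43 in 8 of 8 cultures (exact sign-flip test, adjusted p = 0.00977). With medians over windows in place of means, and first windows included, NGFR over NTF3 was 0.12 (exact sign-flip test, adjusted p = 0.0586) and BDNF over NTRK2 was 0.078, so these steps rest on the mean. SORT1 over BDNF was 0.06 ± 0.08, higher in 7 of 8 cultures (exact sign-flip test, adjusted p = 0.0703). That pair has no settled order, since it was 0.39 with medians (exact sign-flip test, adjusted p = 0.0130), −0.14 without windows under 24 reads (adjusted p = 0.0156, exact sign-flip test) and 0.077 without Angus 4 (exact sign-flip test, adjusted p = 0.0156).

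The first window was then set against the mean of the gene's other windows in each culture, as log2 of the ratio with 0.25 CPM added to both. In 12988 genes with at least 5 windows the first window lay below the others in all 8 libraries in 44.4% and above them in all 8 in 15.1%. In NTF3 it was lower in 8 of 8 cultures, at 0.282 ± 0.0722 CPM against 0.871 ± 0.0824 (log2 ratio −1.08 ± 0.27, exact sign-flip test, adjusted p = 0.0156, over all 6 genes). The p of NTRK2, not printed, is among these 6, so its first window enters each adjusted p of this comparison. In NTRK3 it held 0.327 ± 0.166 against 0.624 ± 0.0284 CPM, again lower in 8 of 8 (−0.65 ± 0.35, exact sign-flip test, adjusted p = 0.0156). The first window of BDNF held no more than 4 reads in any library, so its 0.110 ± 0.0645 CPM against 0.470 ± 0.0368 (−1.02 ± 0.23, lower in 8 of 8, exact sign-flip test, adjusted p = 0.0156) is near the counting limit.

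NGFR and SORT1 gave smaller ratios. In NGFR the first window was lower in 7 of 8 cultures, with 1.28 ± 0.269 against 1.65 ± 0.412 CPM (−0.31 ± 0.31, exact sign-flip test, adjusted p = 0.0352). Leaving out any 1 of 6 libraries (Holstein 1 or 3, or any Angus library) ended the call, with ratios of −0.33 to −0.24 (exact sign-flip tests, adjusted p = 0.0563 to 0.0703). The sign rests on the mean over windows: against the median of the other windows the NGFR ratio was 0.80. In SORT1, 0.444 ± 0.25 stood against 0.471 ± 0.0203 CPM (−0.12 ± 0.45, lower in 6 of 8, exact sign-flip test, adjusted p = 0.5). The SORT1 value in Angus 4, 1.03 CPM, stood apart from 0.261 to 0.358 CPM in the other Angus cultures.

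The ratio of NTRK2 is described here, and its p took part only in the adjustment above. Its log2 ratios were 0.26, −0.39, 0.70 and 0.26 across Holstein 1 to 4 and 1.62, 1.45, 1.67 and 2.33 across Angus 1 to 4. In the Holstein cultures the ratio took both signs (0.21 ± 0.45). The first window held 0.628 CPM against 0.289 in Holstein 3 and 0.196 against 0.334 in Holstein 2. Its values in Holstein 1 and 2 rest on 5 and 6 reads, near the counting limit. In the Angus cultures the first window lay above the rest of the gene in 4 of 4 (1.76 ± 0.39). In NTRK3, NGFR, BDNF, NTF3 and SORT1 the same ratio gave unadjusted p between 0.0857 and 0.971 (exact two-sided permutation tests of 4 against 4, smallest possible p 0.0286). Adjusted over these genes, p ran from 0.43 to 0.97 in the same tests. At this group size a single gene could not have passed after adjustment, so nothing is concluded from them.

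Windows with a coding exon were next compared with the windows without one, leaving out the first. The log2 ratios again have 0.25 CPM added to both means, so they are smaller than the ratios of the printed means. Their size depends on the amount added. With 0.05 and 1 CPM added, the ratio was −0.69 and −0.16 in NTRK2 and 2.44 and 1.30 in NGFR. In 5 of the 6 genes they held more reads, and in NTRK2 they held fewer. In NGFR the 4 coding windows had 2.57 ± 0.735 CPM and the other 3 had 0.429 ± 0.115 (log2 ratio 2.03 ± 0.50). BDNF had 1.5 ± 0.361 against 0.264 ± 0.0467 (1.74 ± 0.40), and NTF3, with 1 coding window, had 2.58 ± 0.439 against 0.802 ± 0.0801 (1.42 ± 0.22). The ratios were smaller in NTRK3 (0.973 ± 0.137 against 0.591 ± 0.0245 CPM, 0.53 ± 0.15) and SORT1 (0.541 ± 0.0348 against 0.370 ± 0.0413 CPM, 0.35 ± 0.14). In NTRK2 the 10 coding windows had 0.176 ± 0.0393 CPM and the 46 others 0.309 ± 0.0271, a log2 ratio of −0.40 ± 0.09. Each of these 6 ratios had its sign in 8 of 8 cultures (exact two-sided sign-flip tests, adjusted p = 0.00781 for each, the smallest 8 libraries allow). Over 10926 genes with both kinds of window, coding windows were higher in all 8 libraries in 50.3% and lower in all 8 in 17.3%, so the direction in NTRK2 was the less common one. CpG content per window was not measured, so its part in these ratios was not tested.

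**Figure D4:**
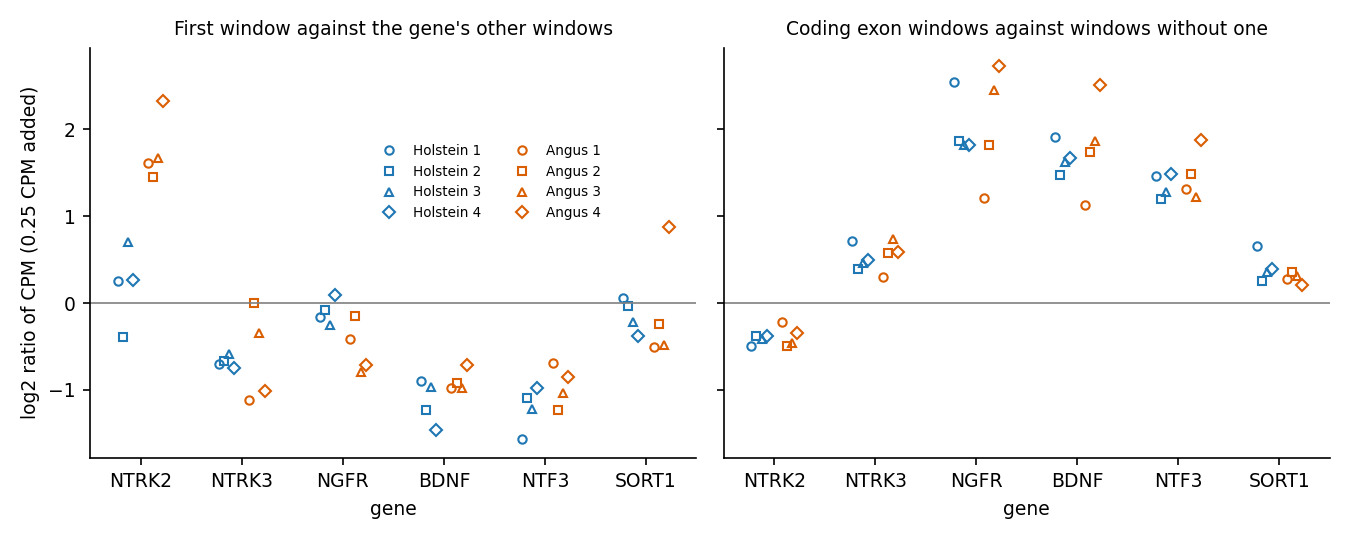
Log2 ratios of CPM, with 0.25 CPM added, in each culture (vertical axes) for the 6 genes (horizontal axes). They are shown for the first window over the other windows and for coding exon windows over the rest. The first window of NTRK2 lies at 0.21 in Holstein and 1.76 in Angus on average, a difference that led to the choice of the genes. The coding windows of NTRK2 lie below its others (−0.40).

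The highest window of each gene besides NTRK2 overlapped between the breeds. In NGFR it was window 5 (chr19:37732275-37735274, coding exon 3), the highest in 8 of 8 cultures, with 7.92, 3.67, 5.30 and 4.18 CPM across Holstein 1 to 4 and 3.33, 4.43, 10.1 and 6.57 across Angus 1 to 4 (log2 fold change −0.22, SE 0.26). The largest values were again in Angus 3 and Holstein 1. In NTF3 it was the coding window (window 26, chr5:105141106-105144105), with 2.76, 2.00, 2.58 and 2.71 CPM across Holstein 1 to 4 and 2.09, 2.90, 2.3 and 3.32 across Angus 1 to 4. The breeds overlapped (−0.07, SE 0.25).

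In BDNF, window 12 (chr15:59165257-59168256, coding exon 1) held 1.7, 1.15, 1.54 and 1.38 CPM across Holstein 1 to 4 and 1.21, 1.56, 1.83 and 2.00 across Angus 1 to 4. In NTRK3 the highest window carried no coding exon (window 7, chr21:19623963-19626962), with 2.05, 2.16, 2.3 and 1.77 CPM across Holstein 1 to 4 and 1.86, 2.51, 2.25 and 2.17 across Angus 1 to 4. In SORT1, window 15 (chr3:34191110-34194109, coding exon 7) held 1.63, 0.818, 0.803 and 1.24 CPM across Holstein 1 to 4 and 0.847, 1.40, 1.36 and 1.54 across Angus 1 to 4. The breeds overlapped in all of these windows.

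Other genes of the pathway were read in the same fits. The list of 30 held, among others, the ligand NTF4, the sortilin relatives, proteases that cleave proneurotrophins, adaptors of the kinase receptors and partners of NGFR. Of these, 28 had windows, and 0 of their 1073 tested windows passed the threshold in edgeR's likelihood-ratio test, with 38 at an unadjusted p under 0.05 (3.54%), beside 0.102% and 4.32% of all windows. Of 27 gene bodies tested, 0 passed, beside 0.049% of all bodies. Their log2 fold changes ran from −0.25 to 0.27, with a median of −0.04, beside −0.00054 for all bodies.

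The first windows whose values over the 8 libraries were most like that of NTRK2 belonged to ADAMTS5, a matrix protease (Pearson r = 0.984), MED31, a Mediator subunit (r = 0.981), and the microRNA gene MIR193A (r = 0.963), out of 23447 first windows. They were picked as the closest of many, and all share the same libraries. Mean CPM in Holstein and Angus cultures was 0.488 and 1.5 for ADAMTS5, 0.900 and 1.25 for MED31, and 0.175 and 0.495 for MIR193A.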

How the data were processed

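MIRA-Seq was done on 8 libraries (4 Holstein, 4 Angus), each made from 1 culture at passage 5. The authors called bases with CASAVA 1.7, discarded reads of low quality, used NextGENe 2.3.4 for alignment to UMD v3.1, and deposited raw read counts per 3Kb window, without normalization, beside coverage per window as an unscaled signal. The handling of duplicate and multiply matching reads is not given in the sources used here, and no input library was used, so CpG density and copy number were not separated from methylation.

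Groups and numbers came from the labels. Windows with at least 24 reads over the 8 libraries were tested with edgeR 4.0.16 under R 4.3.3 (TMM, estimateDisp, likelihood-ratio test, Benjamini-Hochberg over all windows, FDR under 0.1 and at least 2-fold), a wider filter than the paper's 1 CPM in 4 libraries. Gene bodies were reads summed over all windows but the first. Intervals are 95%. Ratios within genes and steps between genes were tested by exact sign-flips over libraries in Python 3.11.15 with scipy 1.17.1. For both, 0.25 CPM was added before log2. The window with the highest mean, the first window, the window of smallest p and the 3 most alike first windows were named by rule, and windows 4, 9 and 30 of NTRK2 were named after their values were seen. The members and lists were chosen with earlier results of these data known. The cultures came from separate animals and were thawed at the same time. With 1 library each, the spread behind the breed tests mixes animal, culture, pull-down and library. The sign-flip tests set ratios within libraries against 0 over both breeds. The procedure was tested on simulated counts. Results were also computed with DESeq2 1.42.0, with edgeR's quasi-likelihood test, with other scalings, filters and added CPM, with a block for the animal number, and without single libraries. Coverage was used only to describe the depth of reads in the first window of NTRK2. The RNA-Seq data were not used here. Some genes of the pathway list are not reported here singly. No sequence is printed.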

Additional observations from a re-analysis of the deposited data

Results flagged for a closer look

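In the first window of SORT1 the library of Angus 4 stood apart from the other Angus cultures, with 1.03 CPM against 0.261, 0.282 and 0.358. The gap, as a share of the group's range, passed Dixon's limit for 4 samples. Of 34 groups of 4 libraries looked at in this way, 1 was flagged, and chance flags about 1 in 20.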

How the results depend on the processing

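The first window of NTRK2 led to the choice of the genes in these same libraries. Its values under the alternatives are therefore a description and no independent support. It was higher in Angus wherever a value was given. The log2 fold change was −1.86 with total counts, −2.05 in DESeq2 and −2.36 to −1.78 with single libraries left out. It had no value with a minimum of 1 CPM in 4 libraries, which is read on total counts, where Angus 3 lies below 1. NTRK2 kept 2 windows there. With that window left aside, 0 to 1 windows of the 6 genes passed in an alternative. The 1 was window 14 of NTRK3 without Angus 2 (log2 fold change 1.59, FDR 0.0977 in edgeR). In that fit 693 of 746824 windows of the genome passed. In the other pathway genes 0 to 1 windows passed with single libraries left out, namely 1 of SORCS1 without Angus 2 and 1 of SORCS2 without Angus 3; without both Holstein 1 and Angus 3, an alternative chosen after seeing the data, 1 passed. Over the genome 760 windows were called, against 399 in the quasi-likelihood test, 38 in DESeq2, 267 with the CPM filter, 439 without unplaced scaffolds and 441 (without Holstein 4) to 1213 (without Holstein 1) with single libraries left out. Total counts moved the median log2 fold change of all windows to 0.17 and of all gene bodies to 0.15. Gene body differences were never called, and their signs varied. They were 0.14 in NTRK3, 0.034 in NGFR and 0.10 in BDNF with total counts, −0.081 in NTRK2 with all its windows summed, and −0.0021 in NTRK2 and −0.013 in SORT1 without Holstein 1 and Angus 3. With single libraries left out they ran from −0.088 to 0.10 in NTRK2, −0.071 to 0.013 in NTRK3, −0.27 to 0.039 in NGFR and −0.055 to 0.085 in SORT1. The log2 ratio of first to other windows over medians was 0.80 in NGFR and 0.031 in SORT1. In NGFR it ran from −0.37 to −0.24 and lost its call without any 1 of 6 libraries, among them Holstein 1 and Angus 3 (exact sign-flip tests). Without both of these it was −1.05 in BDNF, −0.25 in NGFR, −1.01 in NTF3 and −0.69 in NTRK3. The p adjusted over the genes no longer passed. In BDNF, NTF3 and NTRK3 all remaining libraries lay below 0, so the unadjusted p was the smallest that fewer libraries allow. Their lost calls thus do not show that the ratios depend on Holstein 1 and Angus 3. Over medians of windows, with first windows included, BDNF exceeded NTRK2 by 0.078 and NGFR exceeded NTF3 by 0.12, neither past the threshold. There SORT1 exceeded BDNF by 0.39, past it. SORT1 over BDNF was −0.14 without windows under 24 reads, past the threshold the other way, and 0.039 to 0.077 with single libraries left out, past it without Angus 4. Uncalled windows that changed sign were window 7 of NTRK3 and window 26 of NTF3 with total counts (0.092 and 0.085) and, with single libraries left out, window 1 of NTRK3 (−0.66 to 0.28), window 7 of NTRK3 (−0.18 to 0.0021, at 0.000335 without Angus 2), window 5 of NGFR (−0.47 to 0.14), window 26 of NTF3 (−0.18 to 0.040) and window 1 of SORT1 (−0.40 to 0.34). All ratios of coding to other windows kept sign and call, while their size changed with the CPM added. The animal numbers did not pair the cultures (correlations of deviations −0.26 to 0.106 for equal numbers, −0.238 to 0.311 for unequal ones, and 1 of 8 cultures closest to its own number). With the number as a replicate block, 650 windows of the genome were called and 0 of the 257 tested windows of these genes. The first window of NTRK2 is not among the 257. It is only described, and its log2 fold change there was −2.10. Depth limits windows of few reads, above all the first of BDNF.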
